A study of Xenopus laevis with 40 samples.

Results

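The animal cap is the ectoderm of the animal pole of the frog embryo, and when it is cut out and cultured it becomes a mucociliary epidermis like that of the tadpole skin. Uninjected caps of Xenopus laevis at Nieuwkoop and Faber stage 32 were compared here with uninjected caps at stage 25, gene by gene. The libraries were found by their titles, as 2 uninjected libraries of stage 32 and 2 of stage 25, which are 4 of the 40 libraries of the study. Each stage has 1 library from experiment 1 and 1 from experiment 2, and the experiments differ in the mother and in the fertilization, so the comparison is paired by experiment. All caps were cut at stage 8 from wild-type embryos and cultured in saline, and the uninjected embryos had no treatment. The same pair of stages exists, also with 2 libraries each, for caps whose embryos were injected 4 times at the four-cell stage. The injections were nicd mRNA (the intracellular domain of Notch, 120 ng/ul), suh-dbm with dnmcidas mRNA (a Su(H) that cannot bind DNA, which blocks Notch output, with dominant-negative multicilin, 100 ng/ul each), suh-dbm mRNA alone (100 ng/ul), and foxa1MO, a morpholino against the foxa1 start codon (3 pmol). An explant is meant to contain ectoderm alone, without the nerves, vessels, muscle and gut of a tadpole.

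The mucociliary epidermis holds multiciliated cells (MCCs), which move fluid with motile cilia, ionocytes, which carry ions and acid, goblet cells, which cover the surface and secrete mucins, small secretory cells, which release serotonin and other products, and basal cells beneath them. MCCs are set apart when Notch signalling is low. They switch on multicilin (mcidas), cyclin O (ccno) and foxj1, amplify centrioles through deuterosomes, dock these as basal bodies and then grow axonemes. Between the 2 stages the embryo is a tailbud that lives on its yolk, the platelets of which lie in every cell and are broken down in lysosomes.

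The genome of X. laevis carries L and S copies of many genes, from the 2 subgenomes of an ancient hybrid, and each copy was counted under its own ID. Values of copies that resemble each other are uncertain where reads could be assigned to either. Levels below are CPM, the counts of a gene per 1000000 counts of its library, with experiment 1 given before experiment 2. CPM are not scaled by transcript length, so they are compared between libraries and never between genes. Fold changes are log2 values of stage 32 over stage 25 with the standard error after ±, and adjusted p-values are those of the edgeR quasi-likelihood test over all 31648 genes tested, with the experiment as a block. A gene was called, and is said below to rise or fall, at an adjusted p under 0.05. In these bulk samples, fewer cells of a type and less RNA per cell cannot be told apart. The p-values measure the spread between libraries of 2 experiments. Genes named below were picked by a rule given under processing, or, outside it, after their values were seen.

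Total counts were 52675155 and 25901215 at stage 32, against 64782964 and 43827797 at stage 25. In the injected libraries of these stages they lay between 23907346 and 60801732. The libraries were checked against markers of the labelled tissue. Larval keratins, the mucin-like otogelin gene otog.L and intelectin itln1.L were among the 10 most abundant genes at stage 32. MCC (foxj1), ionocyte (foxi1, atp6v1b1), small secretory cell (foxa1) and basal cell (tp63) markers were counted in all 4 libraries. Of the markers of other tissues, the muscle determination gene myod1 had at most 0.154 CPM, the neural gene sox2.L at most 0.137 CPM and the globin hba3.L at most 2.83 CPM in any of the 4 libraries. Other members of these lists were higher, and the summed lists reached 204 CPM for muscle and mesoderm, 88.3 CPM for neural genes, 183 CPM for neural crest and pigment, 428 CPM for cement and hatching gland, 42.4 CPM for endoderm and 90.7 CPM for blood, endothelium and myeloid cells in the library with the most.

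Across genes, 446 rose and 617 fell, which is 1063 of 31648 tested or 3.36% (1.41% higher and 1.95% lower). An unadjusted p under 0.05 was reached by 5529 genes. All 1063 changed the same way in experiment 1 and in experiment 2, and in 1058 of them the stage 32 values lay wholly above or wholly below the stage 25 values, against 49.7% of all genes tested. Nearly every called gene has both traits, so they add little to a call where they are given for single genes below. The change exceeded 2-fold in 919, and exceeded 8-fold upward in 97 and downward in 135. The larger change was in experiment 1 for 375 of the 446 genes that rose (median log2 ratio 1.92 in experiment 1 and 1.38 in experiment 2) and for 450 of the 617 that fell (-1.82 and -1.55).

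**Figure D1:**
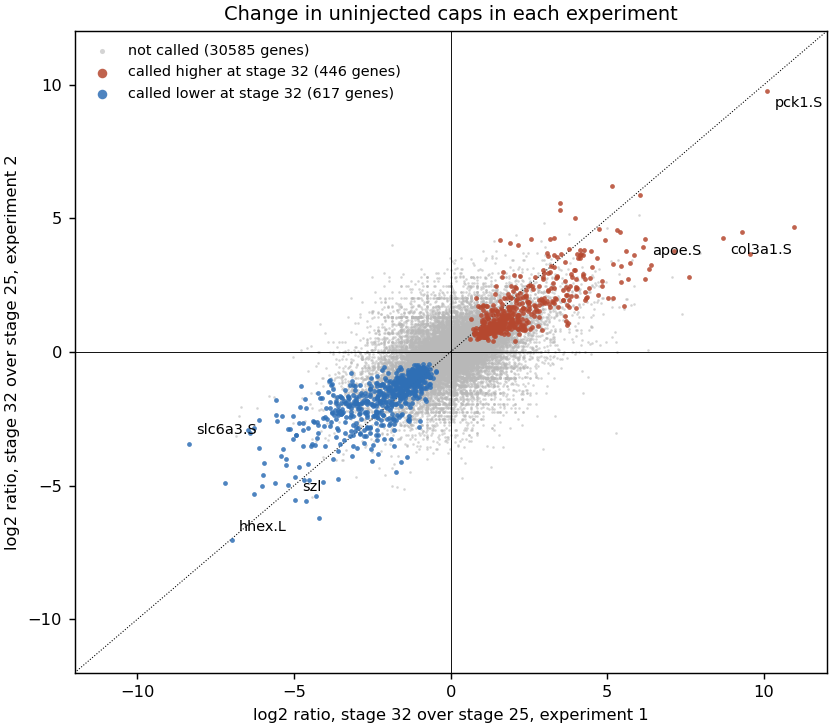
Log2 ratio of stage 32 over stage 25 in experiment 1 (x axis) and in experiment 2 (y axis), both without unit, for each tested gene; the dotted line marks equal change. The 446 called genes that rose lie in the upper right quadrant and the 617 that fell in the lower left, and apoe.S and col3a1.S lie far below the line.

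The number of calls depends on the fit and on single libraries. For fits without a library, here and below, it counts all calls of that fit, which can include genes not called with all libraries. Without the block for the experiment it was 455 (1.44% of genes tested; 178 higher, 277 lower), all of them among the 1063. Leaving out the stage 32 library of experiment 1 left 18 calls, the stage 25 library of experiment 1 left 70, the stage 25 library of experiment 2 left 300 and the stage 32 library of experiment 2 left 588. The sign of all 1063 genes was the same in each of these fits, and 13 were called in all 4 of them. Of the genes named here, these were pck1.L, pck1.S, rhcg.L, tspan1.S and atp2b1.L, which rose, and rab3a.S, cetn3.S and cers2.L, which fell. Any other call named below is lost when at least 1 of the 4 libraries is left out. The unchanged sign adds little, since all 1063 genes had already changed the same way in both experiments. In every list of genes below that held calls, most or all were lost without the stage 32 library of experiment 1.

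Phosphoenolpyruvate carboxykinase, which turns oxaloacetate into phosphoenolpyruvate early in the making of glucose, rose in both copies. The L copy pck1.L (gene14419) had 244 and 129 CPM at stage 32, against 7.70 and 6.71 CPM at stage 25 (log2 fold change 4.61 ± 0.51, adjusted p 0.000260). The S copy pck1.S (gene18590) had 157 and 44.3 CPM at stage 32, against 0.0926 and 0 CPM at stage 25 (log2 fold change 10.71 ± 1.25, adjusted p 0.000273); the stage 25 values rest on 6 counts in all. For both copies every stage 32 value was far above every stage 25 value. Over the 4 stages of uninjected caps (the gastrula stage st10.5, then st16, st25 and st32) pck1.L had 0.0350, 1.49, 7.70 and 244 CPM in experiment 1 and 0.147, 0.566, 6.71 and 129 CPM in experiment 2, so that it was highest at the last.

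Enzymes on the route between lactate, pyruvate and glucose were called in both directions. Lactate dehydrogenase ldhb.S had 4365 and 1759.7 CPM at stage 32, against 536 and 455 CPM at stage 25 (log2 fold change 2.56 ± 0.53, adjusted p 0.00923). The monocarboxylate carrier slc16a1.L, which takes lactate and pyruvate across the cell membrane, had 408 and 497 CPM at stage 32, against 142 and 163 CPM at stage 25 (log2 fold change 1.501 ± 0.37, adjusted p 0.0264). The 2 stages did not overlap for either, but ldhb.S was higher in the stage 32 library of experiment 1 than in that of experiment 2. The weakly counted ldhb.L (log2 fold change 3.65 ± 0.84) and glucose-6-phosphate isomerase gpi.S (1.09 ± 0.28) also rose. Hexokinase 2, which traps glucose for glycolysis, fell in both copies: hk2.S had 49.8 and 93.1 CPM at stage 32, against 349 and 254 CPM at stage 25 (log2 fold change -2.21 ± 0.46, adjusted p 0.00923) and hk2.L changed by -1.98 ± 0.40. Of the 63 tested copies of a carbohydrate metabolism list (69 copies in the files), 6 rose and 2 fell, with a median log2 fold change of 0.41 against -0.02 over all genes tested. The share called was 12.7%, against 3.36% of all genes tested.

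**Figure D2:**
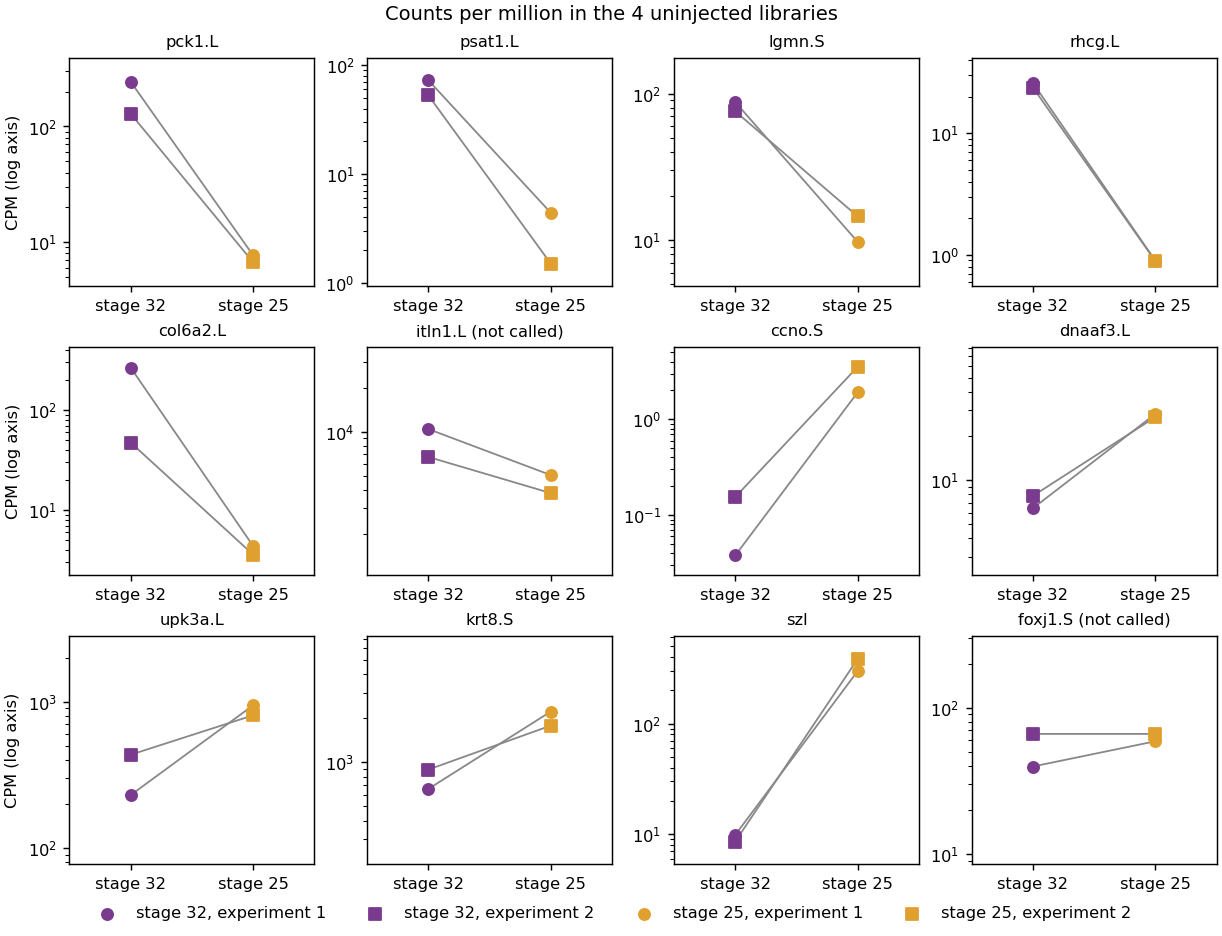
CPM of 12 genes (y axes, logarithmic and scaled for each gene) in the 2 stage 32 libraries (left) and the 2 stage 25 libraries (right) of uninjected caps; lines join libraries of the same experiment. pck1.L, psat1.L, lgmn.S, rhcg.L and col6a2.L rose, ccno.S, dnaaf3.L, upk3a.L, krt8.S and szl fell, and itln1.L and foxj1.S were not called.

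All enzymes of serine synthesis rose in at least 1 copy, though for the first this rests on a copy with 52 counts in all. The first, phosphoglycerate dehydrogenase phgdh.L, had 0.911 and 0.154 CPM at stage 32 and no count at stage 25, at least 24.0-fold higher against a floor of 3 counts over the group (adjusted p 0.0465). The second, phosphoserine aminotransferase psat1.L, had 72.9 and 52.9 CPM at stage 32, against 4.41 and 1.51 CPM at stage 25 (log2 fold change 4.36 ± 0.77, adjusted p 0.00306). Its S copy psat1.S had 39.2 and 23.9 CPM at stage 32, against 2.13 and 1.76 CPM at stage 25 (log2 fold change 3.93 ± 0.69, adjusted p 0.00302). In all 4 libraries the order was the same for both copies, with stage 32 far above stage 25. The last enzyme, phosphoserine phosphatase psph.L, had 106 and 89.0 CPM at stage 32, against 43.9 and 42.6 CPM at stage 25 (log2 fold change 1.11 ± 0.27, adjusted p 0.0221). Aldh1l2.S, a mitochondrial formyltetrahydrofolate dehydrogenase, had 59.7 and 16.6 CPM at stage 32, against 2.47 and 1.71 CPM at stage 25 (log2 fold change 3.99 ± 0.64, adjusted p 0.00195). Both were higher in each stage 32 library than in either stage 25 library. Serine hydroxymethyltransferase shmt2.L (1.67 ± 0.40) and cystathionine gamma-lyase cth.L (1.44 ± 0.29), which forms cysteine, rose as well, and so did asparagine synthetase asns.L (2.88 ± 0.73).

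In a list of serine and one-carbon genes chosen after their values were seen, 9 of 26 tested copies rose and none fell, 6 of them without the block. Those that rose were 34.6%, against 1.41% of all genes tested. A list picked by its values does not speak for its gene class, here and below. A further 2 lists on amino acid use were chosen in the same way. Of 33 copies of tRNA synthetases, which load amino acids onto tRNA, 10 rose and none fell (5 without the block), and 32 of the 33 fold changes were above 0. Those that rose were 30.3%, against 1.41% of all genes tested, where 48.9% of fold changes were above 0. Isoleucyl-tRNA synthetase iars.L had 107 and 62.5 CPM at stage 32, against 21.1 and 28.4 CPM at stage 25 (log2 fold change 1.73 ± 0.35, adjusted p 0.00903), and glycyl-tRNA synthetase gars.L (1.51 ± 0.37) and alanyl-tRNA synthetase aars.L (1.14 ± 0.25) rose less. Of 46 tested copies of amino acid transporters, 7 rose and 1 fell, with a median of 0.84, or 0.63 when copies at 0 in 1 stage are set to their bound. Called copies made up 17.4%, against 3.36% of all genes tested. Slc38a4.L, a carrier of neutral amino acids, had 132 and 71.1 CPM at stage 32, against 10.003 and 12.3 CPM at stage 25 (log2 fold change 3.06 ± 0.58, adjusted p 0.00559). Slc38a2.L had 172 and 175 CPM at stage 32, against 50.5 and 40.5 CPM at stage 25 (log2 fold change 1.90 ± 0.49, adjusted p 0.0334). The exception was slc38a3.S, a glutamine carrier, with 5.94 and 14.8 CPM at stage 32, against 81.9 and 86.8 CPM at stage 25 (log2 fold change -3.12 ± 0.83, adjusted p 0.0376). Ppm1k.L, the phosphatase that activates breakdown of branched-chain amino acids, had 47.1 and 25.5 CPM at stage 32, against 2.41 and 3.19 CPM at stage 25 (log2 fold change 3.57 ± 0.63, adjusted p 0.00330).

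Several genes of the lysosome, in which yolk proteins are broken down, rose. Legumain lgmn.S, a lysosomal protease, had 87.7 and 75.8 CPM at stage 32, against 9.72 and 14.5 CPM at stage 25 (log2 fold change 2.72 ± 0.46, adjusted p 0.00228). Cathepsin Z ctsz.S had 37.0 and 18.9 CPM at stage 32, against 4.199 and 4.77 CPM at stage 25 (log2 fold change 2.53 ± 0.55, adjusted p 0.0120), and cathepsin C ctsc.L changed by 1.26 ± 0.23. The membrane protein lamp1.L (1.72 ± 0.30) and prosaposin psap.L (0.76 ± 0.17), a cofactor of lipid breakdown, rose in both experiments. In a lysosome list chosen after the values were seen, 15 of 52 tested copies rose and none fell (9 without the block), and 49 fold changes were above 0. The rises were 28.8% of this list, against 1.41% of all genes tested. The vacuolar proton pump acidifies lysosomes and is also the acid pump of ionocytes. Of its 33 tested subunit copies 3 rose (9.09%, against 1.41% of all genes tested) and none fell, and without the block 1 rose. Atp6v1g1.L had 119.7 and 84.4 CPM at stage 32, against 41.8 and 44.4 CPM at stage 25 (log2 fold change 1.202 ± 0.30, adjusted p 0.0274), and atp6v1d.S (0.90 ± 0.25) and atp6v1b2.S (0.73 ± 0.19) rose less. The ionocyte subunit atp6v1b1.L was not called, with 567 and 789 CPM at stage 32, against 718 and 749 CPM at stage 25 (adjusted p 0.939).

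Several genes of fatty acid oxidation and lipid transport rose as well. Very long-chain acyl-CoA dehydrogenase acadvl.L, which starts fatty acid oxidation, had 135 and 116 CPM at stage 32, against 39.7 and 58.6 CPM at stage 25 (log2 fold change 1.37 ± 0.37, adjusted p 0.0391). Oxct1.L, which lets cells burn ketone bodies, had 476 and 208 CPM at stage 32, against 127 and 102 CPM at stage 25 (log2 fold change 1.49 ± 0.38, adjusted p 0.0300). Phospholipid transfer protein pltp.L had 96.1 and 47.2 CPM at stage 32, against 4.69 and 6.64 CPM at stage 25 (log2 fold change 3.65 ± 0.90, adjusted p 0.0292). The cholesterol exporter abca1.S had 26.3 and 35.3 CPM at stage 32, against 2.69 and 6.32 CPM at stage 25 (log2 fold change 2.82 ± 0.50, adjusted p 0.00342). None of these 4 overlapped between the stages. Apolipoprotein E apoe.S had 419 and 85.1 CPM at stage 32, against 5.46 and 4.22 CPM at stage 25 (log2 fold change 5.19 ± 1.29, adjusted p 0.0265), so the stage 32 libraries differed widely from each other while both were above stage 25. In the list of fatty acid, ketone and lipoprotein genes, chosen after the values were seen, 12 of 40 tested copies rose and none fell (3 without the block), with 39 fold changes above 0. The rises were 30% of this list, against 1.41% of all genes tested.

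The calls among subunits of the respiratory chain were upward only. Of 119 tested copies 9 rose (2 without the block) and none fell, with a median of 0.60 (0.77 in experiment 1 and 0.41 in experiment 2) and 115 above 0. Those that rose were 7.56% of the copies, against 1.41% of all genes tested. Ndufs1.L of complex I had 128 and 116 CPM at stage 32, against 66.2 and 69.2 CPM at stage 25 (log2 fold change 0.79 ± 0.21, adjusted p 0.0406). Uqcrc1.L of complex III had 165 and 132 CPM at stage 32, against 69.4 and 69.7 CPM at stage 25 (log2 fold change 1.05 ± 0.29, adjusted p 0.0418), and ndufs6.L (1.16 ± 0.27), ndufs4.L (1.15 ± 0.31) and uqcrc2 (1.23 ± 0.33) also rose. The mitochondrial chaperonin hspd1 rose in both copies (1.26 ± 0.34 for S and 0.95 ± 0.21 for L). Of 120 ribosomal protein copies none was called by edgeR or DESeq2 (29 higher and 0 lower at an unadjusted p under 0.05), with 117 of the fitted changes above 0. Their median was 0.51 (0.75 in experiment 1 and 0.26 in experiment 2). Together they took 36922 and 30062 CPM at stage 32 and 21432 and 23876 CPM at stage 25.

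Detoxifying and antioxidant enzymes were called mostly upward. Of 81 tested copies 6 rose and 1 fell (3 and 1 without the block), with a median of 0.63. The calls made up 8.64% of this list, against 3.36% of all genes tested. The cytochrome P450 gene cyp3a4 had 43.3 and 22.4 CPM at stage 32, against 2.66 and 2.49 CPM at stage 25 (log2 fold change 3.66 ± 0.60, adjusted p 0.00208). Cyp4b1.L had 47.5 and 32.01 CPM at stage 32, against 4.37 and 4.24 CPM at stage 25 (log2 fold change 3.14 ± 0.68, adjusted p 0.0120). Peroxiredoxins prdx3.S (1.57 ± 0.33) and prdx1.L (1.55 ± 0.41) and the extracellular superoxide dismutase sod3.S (1.19 ± 0.33) rose as well. The exception was gpx2.L, a glutathione peroxidase, which had no count at stage 32, which allows at most 0.0570 and 0.116 CPM (3 counts), against 0.355 and 0.502 CPM at stage 25. It was at least 10.9-fold lower at stage 32 against a floor of 3 counts over the group (adjusted p 0.00705).

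Of the genes used by multiciliated cells, 8 of 35 tested copies of the centriole list and 6 of 90 of the axoneme list fell, and none of either rose. That is 22.9% and 6.67%, against 1.95% of all genes tested. The median log2 fold change was -0.52 for centrioles and -0.53 for axonemes, and the difference between the lists was not tested. Cyclin O ccno.S had 0.0380 and 0.154 CPM at stage 32, against 1.91 and 3.54 CPM at stage 25 (log2 fold change -5.02 ± 1.003, adjusted p 0.00778). Ccno.L had 0.190 and 0.0772 CPM at stage 32, against 1.25 and 2.01 CPM at stage 25 (log2 fold change -3.33 ± 0.89, adjusted p 0.0375). The deuterosome organiser deup1.L (gene4349) had 0.380 and 0.463 CPM at stage 32, against 9.54 and 13.6 CPM at stage 25 (log2 fold change -4.92 ± 0.98, adjusted p 0.00779). Cdc20b.L, whose locus also carries miRNAs of MCC formation, had 0 and 0.270 CPM at stage 32, against 3.18 and 3.65 CPM at stage 25 (log2 fold change -5.12 ± 1.24, adjusted p 0.0236). For all 4 copies both stage 32 values were below both stage 25 values, and the stage 32 values rest on few reads. Multicilin was close to 0 at stage 32. Its S copy mcidas.S had 0.0380 and 0.116 CPM at stage 32, against 1.78 and 1.76 CPM at stage 25 (log2 fold change -4.74 ± 1.29, adjusted p 0.0427). Its L copy had 2 counts at stage 32 and 201 at stage 25, 72.7-fold lower by library totals (95% interval 19.9 to 604, counting error only), and missed the threshold (adjusted p 0.0746).

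The peak of these genes lay before either stage. Over st10.5, st16, st25 and st32, ccno.S had 10.8, 106, 1.91 and 0.0380 CPM in experiment 1 and 18.6, 108, 3.54 and 0.154 CPM in experiment 2. Deup1.L had 13.6, 81.0, 9.54 and 0.380 CPM in experiment 1 and 3.52, 93.0, 13.6 and 0.463 CPM in experiment 2. Both were highest at stage 16 in each experiment. Of 35 tested copies of centriole amplification genes 8 fell and none rose (6 without the block), with a median of -0.52, and odf2.L (-1.89 ± 0.33), poc1a.L (-2.32 ± 0.48) and cep164.L (-1.76 ± 0.30) were among them.

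For the basal body and the transition zone at the cilium base, a list was chosen after the values were seen. Of its 42 tested copies 24 fell and none rose (18 without the block), with a median of -1.17 and 41 fold changes below 0. Those that fell were 57.1%, against 1.95% of all genes tested, where 51.1% of fold changes were below 0. Centrin 3, cetn3.S, had 5.89 and 6.56 CPM at stage 32, against 17.4 and 20.9 CPM at stage 25 (log2 fold change -1.68 ± 0.23, adjusted p 0.000554). The centriolar satellite scaffold pcm1.L had 139 and 154 CPM at stage 32, against 348 and 336 CPM at stage 25 (log2 fold change -1.29 ± 0.21, adjusted p 0.00213). Cep57l1.L had 6.21 and 8.73 CPM at stage 32, against 25.5 and 34.5 CPM at stage 25 (log2 fold change -2.08 ± 0.30, adjusted p 0.000673). The stages did not overlap for any of the 3. Mdm1.L (-1.96 ± 0.41) and cep41.S (-2.02 ± 0.42) fell too.

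For the cilium itself, 8 of 46 copies of the intraflagellar transport and BBSome list fell and none rose (5 without the block), with a median of -0.70. Those that fell were 17.4% of the list, against 1.95% of all genes tested. The kinesin subunit kif3a.S, part of the motor that carries cargo up the cilium, had 9.83 and 7.84 CPM at stage 32, against 35.3 and 29.3 CPM at stage 25 (log2 fold change -1.94 ± 0.35, adjusted p 0.00399). Ift88.S had 31.0 and 38.7 CPM at stage 32, against 68.7 and 68.7 CPM at stage 25 (log2 fold change -1.04 ± 0.26, adjusted p 0.0248). Ttc26.L (-1.32 ± 0.36), ift81.L (-1.25 ± 0.32) and ift22.L (-1.23 ± 0.25) also fell. Of 90 tested axoneme copies (97 in the files) 6 fell and none rose (4 without the block), with a median of -0.53 and 83 below 0. No dynein heavy chain is among the 6: 5 are copies of dynein assembly factors, which put dynein arms together in the cytoplasm before transport, and the other is nme7.L. Dnaaf3.L had 6.42 and 7.80 CPM at stage 32, against 28.3 and 27.0 CPM at stage 25 (log2 fold change -2.04 ± 0.40, adjusted p 0.00740). Dnaaf2.L had 15.5 and 19.8 CPM at stage 32, against 52.4 and 59.8 CPM at stage 25 (log2 fold change -1.74 ± 0.26, adjusted p 0.00110). Dnaaf1.S (-1.58 ± 0.39) and dnaaf5.S (-1.56 ± 0.31) were close to them.

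The MCC transcription factor foxj1 was not called. Foxj1.S had 39.6 and 66.1 CPM at stage 32, against 58.9 and 66.1 CPM at stage 25 (log2 fold change -0.29 ± 0.73, adjusted p 0.905). Foxj1.L had 17.3 and 29.0 CPM at stage 32, against 19.2 and 26.7 CPM at stage 25 (adjusted p 0.995), so the stages overlapped for both copies. Of 22 tested copies on the MCC fate list, mcidas.S alone was called, and none without the block. That is 4.55%, against 3.36% of all genes tested called and 1.95% called lower. DESeq2 called 3 lower and 0 higher. The median of the list was -0.45, and 20 of the 22 fold changes were below 0. The summed level of the axoneme list was 3753 and 3859 CPM at stage 32 and 5157 and 4980.2 CPM at stage 25.

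**Figure D3:**
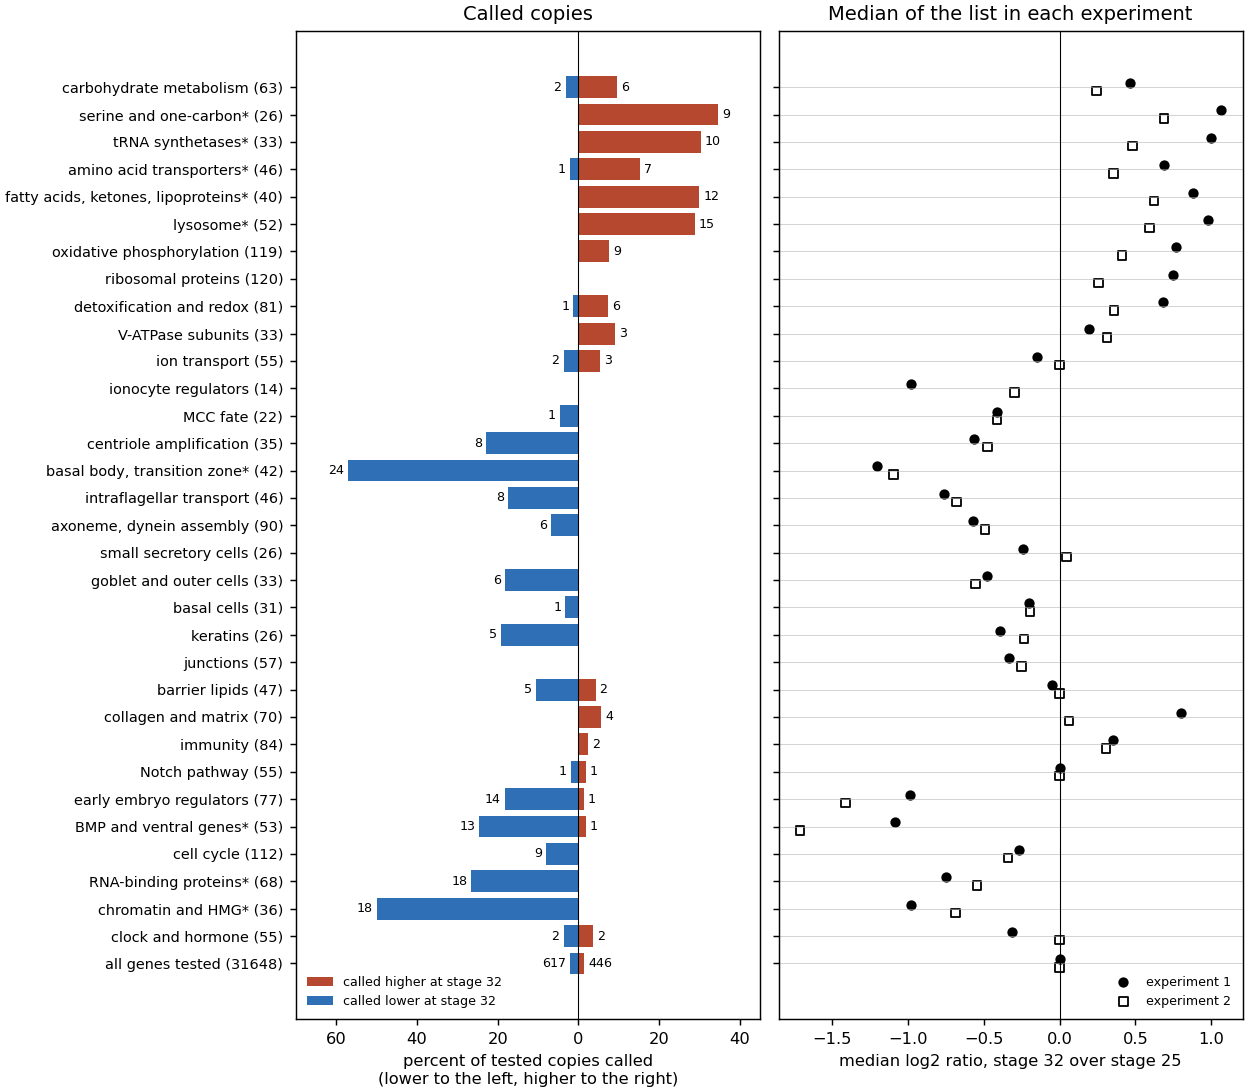
Left, percent of the tested copies of each list (number in brackets) called higher (to the right) and lower (to the left) at stage 32, with the number of copies beside each bar; right, the list's median log2 ratio of stage 32 over stage 25 in each experiment. Asterisks mark lists chosen after their values were seen, and the bottom row gives all 31648 genes tested, with 446 higher and 617 lower.

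Ion transport genes were called in both directions. Rhcg.L (gene4832), an ammonium channel used by ionocytes of skin and kidney, had 25.9 and 23.7 CPM at stage 32, against 0.895 and 0.890 CPM at stage 25 (log2 fold change 4.74 ± 0.61, adjusted p 0.000408), nearly the same in both experiments. At st10.5, st16, st25 and st32 it had 0.210, 0.0201, 0.895 and 25.9 CPM in experiment 1 and 0.220, 0, 0.890 and 23.7 CPM in experiment 2. The sodium bicarbonate cotransporter slc4a4.L had 4.82 and 2.97 CPM at stage 32, against 0.278 and 0.365 CPM at stage 25 (log2 fold change 3.55 ± 0.84, adjusted p 0.0202). The water and glycerol channel aqp3.S had 13.1 and 2.16 CPM at stage 32, against 0.756 and 0.365 CPM at stage 25 (log2 fold change 3.40 ± 0.77, adjusted p 0.0157). In contrast the sodium-potassium-chloride cotransporter slc12a2.L had 49.4 and 50.3 CPM at stage 32, against 103 and 95.6 CPM at stage 25 (log2 fold change -1.06 ± 0.27, adjusted p 0.0287). Of 55 tested copies of ion transport genes (74 in the files), 3 rose and 2 fell (9.09% called, against 3.36% of all genes tested). None of 14 tested copies of ionocyte regulators was called by edgeR or DESeq2 (1 lower and 0 higher at an unadjusted p under 0.05). Their median was -0.53 (-0.98 in experiment 1 and -0.30 in experiment 2). Of the 14 fold changes 12 were below 0, against 51.1% of all genes tested. Foxi1.L had 65.0 and 101 CPM at stage 32, against 80.8 and 119 CPM at stage 25 (adjusted p 0.906). Foxi1.S had 28.2 and 55.6 CPM at stage 32, against 53.8 and 78.4 CPM at stage 25 (adjusted p 0.638).

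Of goblet and outer cell genes, 2 abundant ones, itln1.L and otog.L, were not called, while uroplakins fell. Intelectin itln1.L, a secreted lectin of Xenopus goblet cells, had 10405 and 6709 CPM at stage 32, against 5043 and 3799.8 CPM at stage 25 (log2 fold change 0.88 ± 0.55, adjusted p 0.430). Itln1.S had 16.8 and 14.5 CPM at stage 32, against 5.45 and 8.97 CPM at stage 25 (adjusted p 0.352). Both stage 32 values of each copy were above both stage 25 values, but the stages did not overlap in 49.7% of all genes tested. Otog.L had 9099 and 11211 CPM at stage 32, against 14886 and 12152 CPM at stage 25 (adjusted p 0.841), with both stage 32 values below both stage 25 values. Of 33 tested goblet and outer cell copies 6 fell (18.2%, against 1.95% of all genes tested) and none rose (3 without the block). The uroplakins, which form stiff apical plaques in the mammalian bladder, made up 4 of these. Upk1a.L had 186 and 203 CPM at stage 32, against 481 and 469.6 CPM at stage 25 (log2 fold change -1.35 ± 0.22, adjusted p 0.00195). Upk3a.L had 230.3 and 435 CPM at stage 32, against 946 and 808 CPM at stage 25 (log2 fold change -1.49 ± 0.40, adjusted p 0.0385), and upk1b.S (-1.19 ± 0.31) and an ID named upk1b without a suffix also fell. Grhl3.S, a transcription factor of surface ectoderm, had 238 and 239 CPM at stage 32, against 586 and 621 CPM at stage 25 (log2 fold change -1.40 ± 0.35, adjusted p 0.0260), whereas grhl3.L did not pass the test (log2 fold change -0.50 ± 0.39, adjusted p 0.555). Galnt6, which begins mucin-type sugar chains, had 152 and 204 CPM at stage 32, against 429 and 500.2 CPM at stage 25 (log2 fold change -1.46 ± 0.27, adjusted p 0.00398).

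Of small secretory cell and basal cell markers, none and 1 were called. The share called was 3.23% of the basal cell list, all of it downward, against 3.36% of all genes tested called and 1.95% called lower. Of 26 tested small secretory cell copies none was called by edgeR and 1, lower, by DESeq2 (2 higher and 2 lower at an unadjusted p under 0.05). Tph1.S, which makes serotonin, had 4.44 and 2.86 CPM at stage 32, against 0.803 and 0.730 CPM at stage 25 (log2 fold change 2.11 ± 0.996, adjusted p 0.271). Foxa1.L had 9.87 and 12.8 CPM at stage 32, against 6.82 and 14.6 CPM at stage 25 (adjusted p 1). Foxa1.S had 12.6 and 16.5 CPM at stage 32, against 14.4 and 11.5 CPM at stage 25 (adjusted p 0.942). Of 31 tested basal cell copies plec.S alone fell, a plectin that ties keratin to the cell's attachment sites (log2 fold change -1.05 ± 0.26, adjusted p 0.0243). Tp63.L had 115 and 135 CPM at stage 32, against 170.0 and 147 CPM at stage 25 (adjusted p 0.882). Tp63.S had 94.4 and 119 CPM at stage 32, against 208 and 157 CPM at stage 25 (adjusted p 0.377).

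The simple-epithelium keratins fell while the abundant larval keratins did not pass the test. Krt8.S had 659 and 893 CPM at stage 32, against 2226 and 1785 CPM at stage 25 (log2 fold change -1.49 ± 0.32, adjusted p 0.0107). Its partner krt18.L had 9.26 and 32.7 CPM at stage 32, against 103 and 116 CPM at stage 25 (log2 fold change -2.76 ± 0.68, adjusted p 0.0257). Krt18.S had 0.190 and 0.541 CPM at stage 32, against 19.4 and 4.47 CPM at stage 25 (log2 fold change -5.47 ± 1.11, adjusted p 0.00828), krt8.L changed by -1.16 ± 0.31 and krt19 by -1.60 ± 0.43. Krt18.L, krt18.S and krt19 were lower in the stage 32 library of experiment 1 than in that of experiment 2. These 5 were the calls among 26 tested keratin copies (19.2%, against 3.36% of all genes tested), and without the block 1 remained. Krt5.7.S had 32272 and 30490.2 CPM at stage 32, against 28019.6 and 26127 CPM at stage 25 (adjusted p 0.950). Krt5.7.L had 19712 and 18484 CPM at stage 32, against 18995 and 17018 CPM at stage 25 (adjusted p 1). Of the other keratins among the most abundant genes, xk81a1.S had 23437 and 17635 CPM at stage 32, against 13502 and 12113 CPM at stage 25 (adjusted p 0.630). Krt.S had 6036 and 8182 CPM at stage 32, against 13619.7 and 13218 CPM at stage 25 (adjusted p 0.111).

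None of 57 tested copies of cell junction genes was called by edgeR and 3 were by DESeq2, 1 of them higher (2 higher and 9 lower at an unadjusted p under 0.05; median -0.28). In the barrier lipid list, 2 of 47 tested copies rose and 5 fell (none and 1 without the block). That is 14.9% called, against 3.36% of all genes tested. Fatty acid chains are lengthened by elongases, of which elovl7.L had 146 and 235 CPM at stage 32, against 601 and 570.4 CPM at stage 25 (log2 fold change -1.70 ± 0.34, adjusted p 0.00811) and elovl7.S changed by -1.29 ± 0.32. The channel-activating protease prss8.S fell by less (-0.96 ± 0.25), while the fatty acid carrier slc27a4.L (0.96 ± 0.21) and mogat1.L, which makes diacylglycerol (1.73 ± 0.43), rose. Outside that list, ceramide synthase cers2.L had 136 and 160.5 CPM at stage 32, against 441 and 455 CPM at stage 25 (log2 fold change -1.67 ± 0.21, adjusted p 0.000273). Hyaluronan synthase has1.S, which makes the matrix sugar hyaluronan, had 9.07 and 40.5 CPM at stage 32, against 326 and 285 CPM at stage 25 (log2 fold change -3.91 ± 0.71, adjusted p 0.00398). The related has-rs.S had 0.607 and 5.25 CPM at stage 32, against 29.98 and 25.6 CPM at stage 25 (log2 fold change -3.77 ± 0.83, adjusted p 0.0129). Both were lower in the stage 32 library of experiment 1 than in that of experiment 2. They were the only calls among 17 tested copies of a hyaluronan list chosen after the values were seen, which had a median of -0.11 and 7 copies above 0. These 2 calls were 11.8% of that list, against 1.95% of all genes tested called lower. Over st10.5, st16, st25 and st32 has1.S had 2651, 6346, 326 and 9.07 CPM in experiment 1 and 3802, 4394, 285 and 40.5 CPM in experiment 2.

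Genes for extracellular matrix were called upward, with larger changes in experiment 1. The collagen VI chain col6a2.L had 266 and 47.3 CPM at stage 32, against 4.37 and 3.58 CPM at stage 25 (log2 fold change 4.72 ± 1.03, adjusted p 0.0124). The collagen V chain col5a1.L had 12.8 and 5.48 CPM at stage 32, against 0.587 and 1.32 CPM at stage 25 (log2 fold change 3.11 ± 0.82, adjusted p 0.0362). Col3a1.S, a fibrillar collagen, had 19.8 and 0.927 CPM at stage 32 and no count at stage 25, at least 493-fold higher against a floor of 3 counts over the group (adjusted p 0.0319). Bmp1.S, the protease that trims procollagens, had 45.9 and 11.9 CPM at stage 32, against 3.50 and 4.43 CPM at stage 25 (log2 fold change 2.72 ± 0.73, adjusted p 0.0376). These 4 of 70 tested collagen and matrix copies rose (5.71%, against 1.41% of all genes tested) and none fell. None of the 4 was called without the block. The median of the list was 0.80 in experiment 1 and 0.06 in experiment 2, and its summed level was 3801 and 1816 CPM at stage 32 and 981 and 1035 CPM at stage 25. None of the list was called without the stage 32 library of experiment 1, without the stage 25 library of experiment 1 or without that of experiment 2, and 3 were without the stage 32 library of experiment 2. The endocytic collagen receptor mrc2.S (6.1997 in experiment 1 and 2.72 in experiment 2, as log2 ratios) and the FGF carrier fgfbp1.S (95.7 and 3.71 CPM at stage 32, against 0 and 0.0913 CPM at stage 25) showed the same imbalance. Of 23 tested muscle and mesoderm marker copies none was called by edgeR and 1, higher, by DESeq2 (2 higher and 3 lower at an unadjusted p under 0.05). Their summed level was 173 and 128 CPM at stage 32 and 204 and 186 CPM at stage 25, and myod1.S had no count in 3 of the 4 libraries.

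Immune genes gave 2 calls of 84 tested copies, both upward (1 without the block). That is 2.38%, against 1.41% of all genes tested called higher and 3.36% called in either direction. DESeq2 called 7 copies higher and 0 lower, and the median was 0.50 with 56 fold changes above 0. Annexin anxa1.L, which dampens inflammation in mammals, had 65.6 and 73.3 CPM at stage 32, against 8.06 and 16.9 CPM at stage 25 (log2 fold change 2.47 ± 0.49, adjusted p 0.00712). The receptor tlr4.S had 10.9 and 4.48 CPM at stage 32, against 0.448 and 0.776 CPM at stage 25 (log2 fold change 3.40 ± 0.92, adjusted p 0.0405). Blood, endothelial and myeloid markers were scarce, with a summed level of 10.4 and 30.2 CPM at stage 32 and 60.6 and 90.7 CPM at stage 25. Of their 27 tested copies 1 was called, or 3.7%. That was cebpa.L, a factor also active in differentiating epidermis of mammals, with 1.18 and 7.03 CPM at stage 32, against 30.9 and 50.7 CPM at stage 25 (log2 fold change -3.88 ± 0.63, adjusted p 0.00198; 0.187 without the block).

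Regulators of the early embryo were called mostly downward. Of 77 tested copies 14 fell and 1 rose (5 and 1 without the block), with a median of -1.24. The share called was 19.5%, against 3.36% of all genes tested. Sizzled szl (gene34969), a secreted inhibitor of tolloid proteases and a feedback target of BMP signalling, had 9.87 and 8.61 CPM at stage 32, against 298 and 384 CPM at stage 25 (log2 fold change -5.18 ± 0.84, adjusted p 0.00195). Ventx2.1.S, a homeobox repressor induced by BMP, had 2.03 and 3.09 CPM at stage 32, against 57.0 and 58.6 CPM at stage 25 (log2 fold change -4.58 ± 0.72, adjusted p 0.00193). Its relative xvent-2b had 0.778 and 1.12 CPM at stage 32, against 24.9 and 27.9 CPM at stage 25 (log2 fold change -4.89 ± 0.83, adjusted p 0.00262). All stage 32 values of these 3 were an order of magnitude under the stage 25 values. Szl was as high at stage 25 as at stage 16, with 78.0, 301, 298 and 9.87 CPM in experiment 1 and 156, 331, 384 and 8.61 CPM in experiment 2 over st10.5, st16, st25 and st32, whereas ventx2.1.S was highest at st10.5.

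Ventx2.2.L also fell (-3.29 ± 0.82), although near-identical ventx2 copies may share reads. The homeobox gene hhex.L had 0.114 and 0.0772 CPM at stage 32, against 19.8 and 15.9 CPM at stage 25 (log2 fold change -7.48 ± 1.42, adjusted p 0.00555). The inhibitory Smad smad7.L had 48.9 and 19.8 CPM at stage 32, against 94.5 and 131 CPM at stage 25 (log2 fold change -1.74 ± 0.45, adjusted p 0.0323). Id2.S, a target of BMP signalling, had 65.1 and 73.9 CPM at stage 32, against 238 and 316 CPM at stage 25 (log2 fold change -2.03 ± 0.46, adjusted p 0.0168). For both the stages did not overlap. The homeobox gene dlx2.L had 26.6 and 30.3 CPM at stage 32, against 102 and 160.0 CPM at stage 25 (log2 fold change -2.19 ± 0.59, adjusted p 0.0408), and the ligand gene bmp3.S changed by -2.90 ± 0.69. In a list of BMP pathway and ventral genes chosen after the values were seen, 13 of 53 tested copies fell and 1, bmp1.S, rose (7 and none without the block). Called copies were 26.4%, against 3.36% of all genes tested. This list shares at least id2.S with the early embryo list and bmp1.S with the collagen and matrix list, so the counts are not separate. How many copies the lists share is not given here.

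Several genes of the uncommitted ectoderm fell. Pou5f3.1, a relative of mammalian Oct4, changed by -3.98 ± 0.78 (S) and -2.24 ± 0.53 (L). Lin28a.S, which blocks maturation of let-7 miRNAs, had 8.13 and 14.6 CPM at stage 32, against 43.2 and 37.97 CPM at stage 25 (log2 fold change -2.004 ± 0.40, adjusted p 0.00798). Foxi4.2.L, a forkhead factor of early ectoderm, had 2 counts at stage 32 and 316 at stage 25, 114-fold lower by library totals (95% interval 31.4 to 948, counting error only, adjusted p 0.00183). Vgll1.L (-1.62 ± 0.42) and klf5.S (-2.05 ± 0.56) fell as well. The 1 gene of the list that rose was klf9.L, a factor known for its response to thyroid and steroid hormones, with 24.7 and 26.4 CPM at stage 32, against 6.88 and 6.18 CPM at stage 25 (log2 fold change 1.91 ± 0.40, adjusted p 0.00930). In the clock and hormone list, 7.27% of 55 tested copies were called, against 3.36% of all genes tested. Of these, 2 rose (klf9.L and the clock output factor tef.S, 0.80 ± 0.22) and 2 fell. Those that fell were the thyroid hormone deiodinase dio2.L, with 1.21 and 1.85 CPM at stage 32, against 8.13 and 8.76 CPM at stage 25 (log2 fold change -2.54 ± 0.65, adjusted p 0.0315), and the retinoic acid hydroxylase cyp26a1.S, with 0.228 and 0 CPM at stage 32, against 6.54 and 2.26 CPM at stage 25 (log2 fold change -5.05 ± 1.15, adjusted p 0.0161).

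Notch pathway genes gave 1 call in each direction among 55 tested copies (3.64% called, against 3.36% of all genes tested). The ligand jag1.S had 11.05 and 7.03 CPM at stage 32, against 2.69 and 2.81 CPM at stage 25 (log2 fold change 1.59 ± 0.38, adjusted p 0.0236). The target hes5.10.L had 0.0759 and 0.425 CPM at stage 32, against 2.45 and 2.67 CPM at stage 25 (log2 fold change -3.66 ± 0.84, adjusted p 0.0172).

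Among cell cycle genes 9 of 112 tested copies fell and none rose (7 without the block), with a median of -0.30. Those that fell were 8.04% of the copies, against 1.95% of all genes tested. Cyclin A1 is an early embryonic cyclin. Its S copy ccna1.S had 0.0759 and 0.270 CPM at stage 32, against 7.63 and 9.77 CPM at stage 25 (log2 fold change -5.92 ± 0.86, adjusted p 0.000673). In injected caps at stage 25, ccna1.S had 0.295 and 0.150 CPM with nicd and 0.477 and 0.251 CPM with suh-dbm and dnmcidas. It had 6.35 and 13.2 CPM with suh-dbm and 5.11 and 11.9 CPM with foxa1MO, and the cause was not tested. Ccna1.L had 0.304 and 0.772 CPM at stage 32, against 7.21 and 8.46 CPM at stage 25 (log2 fold change -4.02 ± 0.84, adjusted p 0.00940). Plk1.S, a mitotic kinase, had 28.6 and 33.3 CPM at stage 32, against 62.8 and 78.1 CPM at stage 25 (log2 fold change -1.25 ± 0.28, adjusted p 0.0148), and ccnb2.L changed by -1.50 ± 0.26. The proliferation marker mki67 was not called. Mki67.L had 37.8 and 50.1 CPM at stage 32, against 34.2 and 60.9 CPM at stage 25 (adjusted p 0.821). Mki67.S had 37.9 and 55.0 CPM at stage 32, against 30.6 and 51.7 CPM at stage 25 (adjusted p 0.910), and the stages overlapped for both copies. Myc.S, a growth regulator, had 23.1 and 28.3 CPM at stage 32, against 124 and 142 CPM at stage 25 (log2 fold change -2.44 ± 0.46, adjusted p 0.00493).

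For RNA-binding proteins and chromatin proteins, 2 lists were chosen after the values were seen. Of 68 listed RNA-binding copies 18 fell and none rose (9 without the block, 67 fold changes below 0). Of 36 listed chromatin copies 18 fell and none rose (4 without the block, 34 below 0). The falls were 26.5% of the RNA-binding list and 50% of the chromatin list, against 1.95% of all genes tested. The splicing factor hnrnpa1 had 372 and 441 CPM at stage 32, against 883 and 852 CPM at stage 25 (log2 fold change -1.16 ± 0.25, adjusted p 0.0122). The cold-inducible cirbp.L had 1949 and 2537 CPM at stage 32, against 4347 and 4183 CPM at stage 25 (log2 fold change -1.01 ± 0.25, adjusted p 0.0292). Hmgn2.L, a nucleosome-binding protein, had 314 and 566 CPM at stage 32, against 1056 and 1181 CPM at stage 25 (log2 fold change -1.46 ± 0.25, adjusted p 0.00267), and hmgb2.S changed by -0.94 ± 0.25. The 2 stages did not overlap for any of the 4.

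Of the remaining genes with the largest changes, several have other roles. Htra3.L, a secreted protease, had 29.3 and 34.1 CPM at stage 32, against 1.57 and 2.78 CPM at stage 25 (log2 fold change 3.80 ± 0.82, adjusted p 0.0120). Cryl1.L, an enzyme of sugar acid breakdown, had 19.5 and 4.17 CPM at stage 32, against 0.324 and 0.548 CPM at stage 25 (log2 fold change 4.75 ± 1.11, adjusted p 0.0188). Among those that fell, slc6a3.S, the dopamine transporter of neurons, had 0.190 and 7.84 CPM at stage 32, against 74.6 and 80.1 CPM at stage 25 (log2 fold change -5.13 ± 1.15, adjusted p 0.0160; 0.114 without the block). In experiment 2 its stage 32 level was less low than in experiment 1. Tll1-like.1.L, a tolloid-like protease gene, had 1.21 and 1.70 CPM at stage 32, against 17.6 and 11.2 CPM at stage 25 (log2 fold change -3.47 ± 0.84, adjusted p 0.0223). Bcar3.L, an adaptor of cell adhesion signalling, had 1.61 and 1.66 CPM at stage 32, against 19.6 and 12.2 CPM at stage 25 (log2 fold change -3.33 ± 0.53, adjusted p 0.00193). Hmha1.S (-3.40 ± 0.78) and val.L (-3.35 ± 0.88) fell by similar amounts. Tspan1.S, a tetraspanin, had 7.69 and 5.48 CPM at stage 32, against 0.247 and 0.411 CPM at stage 25 (log2 fold change 4.24 ± 0.55, adjusted p 0.000273). The calcium pump atp2b1.L had 5.52 and 6.91 CPM at stage 32, against 1.28 and 0.844 CPM at stage 25 (log2 fold change 2.50 ± 0.40, adjusted p 0.00195). Rab3a.S, a GTPase of regulated secretion, had 5.96 and 7.99 CPM at stage 32, against 65.9 and 37.7 CPM at stage 25 (log2 fold change -2.93 ± 0.36, adjusted p 0.000273). These 3 were called whichever of the 4 libraries was left out.

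The edgeR calls among markers of other tissues were downward only. Of neural markers 2 of 27 tested copies fell (7.41%, against 1.95% of all genes tested). Elavl3.L had no count at stage 32, against 2.21 and 1.39 CPM at stage 25, at least 49.2-fold lower with a floor of 3 counts over the group (adjusted p 0.00826). Ncam1.L had 0.0759 and 0 CPM at stage 32, against 1.94 and 1.37 CPM at stage 25. Of endoderm markers 1 of 18 fell (5.56%), cdx2.S, with no count at stage 32 against 0.864 and 1.99 CPM at stage 25. Of neural crest and pigment markers 2 of 24, or 8.33%, fell (pmel.S, -1.78 ± 0.49, and sox8.L, -2.46 ± 0.69). DESeq2 called 2 copies of this list higher and 3 lower, and 4 were higher and 4 lower at an unadjusted edgeR p under 0.05. Of cement and hatching gland markers none of 10 was called by edgeR and 1, lower, by DESeq2 (1 higher and 1 lower at an unadjusted p under 0.05). The summed neural level was 38.7 and 53.4 CPM at stage 32 and 72.4 and 88.3 CPM at stage 25. The summed neural crest and pigment level was 74.9 and 124 CPM at stage 32 and 147 and 183 CPM at stage 25. The summed cement and hatching gland level was 228 and 337 CPM at stage 32 and 326 and 428 CPM at stage 25.

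**Figure D4:**
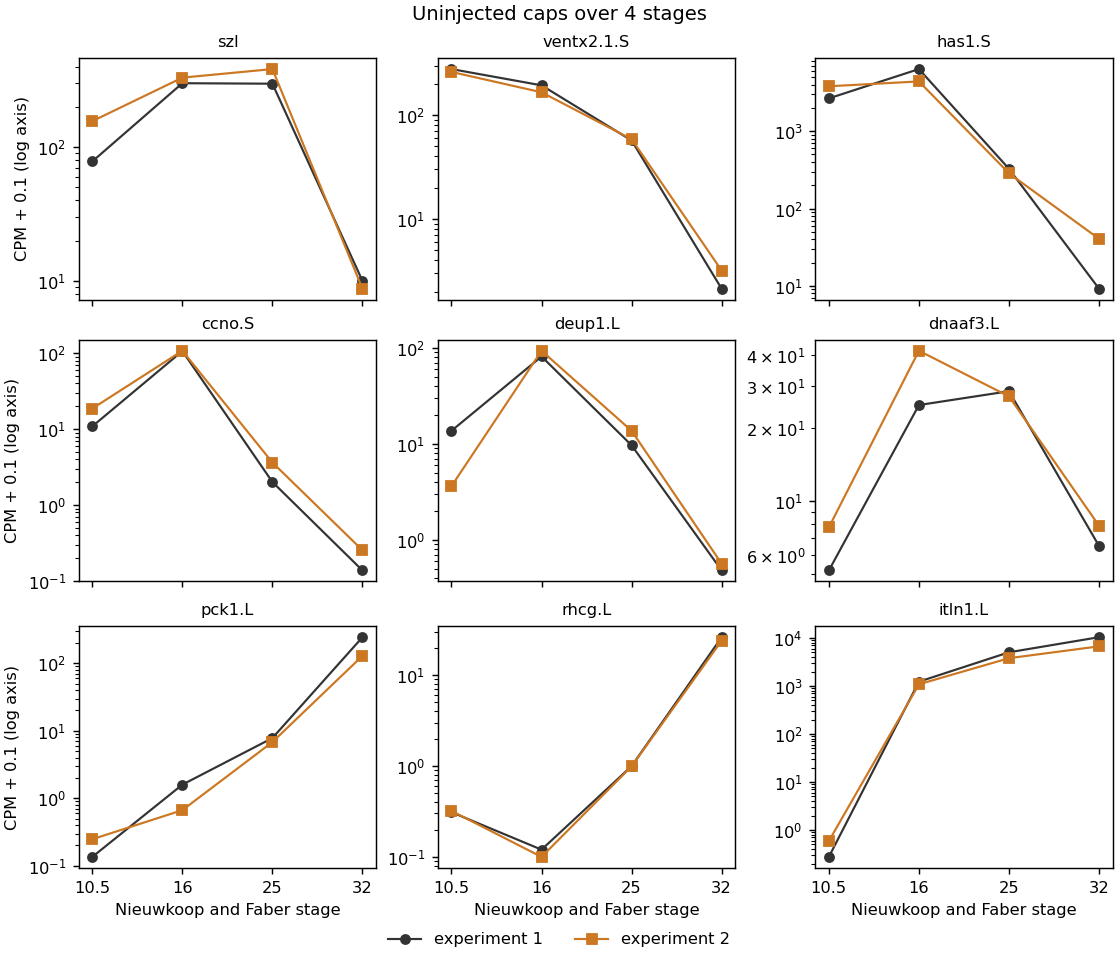
CPM plus 0.1 (y axes, logarithmic) of 9 genes in uninjected caps at Nieuwkoop and Faber st10.5, st16, st25 and st32 (x axes), for each experiment. Szl and ventx2.1.S were lowest at stage 32, ccno.S and deup1.L were highest at stage 16, and pck1.L, rhcg.L and itln1.L were highest at stage 32.

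The earlier stages of uninjected caps were set beside these changes. Of the 446 genes that rose, 307 (68.8%) had their highest mean CPM of the 4 stages at stage 32, and 136 (30.5%) had it at st10.5. Lamp1.L was of the second kind, with 88.4, 9.72, 18.6 and 72.5 CPM in experiment 1 and 77.5, 5.47, 14.97 and 44.8 CPM in experiment 2 over st10.5, st16, st25 and st32. Of the 617 that fell, 244 (39.5%) were highest at st10.5, 284 (46.0%) at stage 16 and 89 (14.4%) at stage 25. Among the 30585 genes not called, 46.0%, 15.5%, 13.7% and 24.7% were highest at st10.5, st16, st25 and st32. The choice of genes by their stage 32 and stage 25 levels fixes part of these shares.

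The caps with foxa1MO give the same pair of stages in libraries of their own, from the same 2 experiments and tested in the same fit. They are therefore not an independent repeat of the comparison. There 860 genes were called (422 higher, 438 lower; 2.72% of 31648), and 369 without the block. Leaving out a library left 0 calls (stage 32, experiment 1), 142 (stage 25, experiment 1), 40 (stage 25, experiment 2) and 1183 (stage 32, experiment 2). The calls in common with the uninjected caps, in the same direction, were 514, which is 48.4% of the 1063 and 59.8% of the 860, and no gene was called in opposite directions. Of the 1063 genes, 1056 had the same sign in the caps with foxa1MO. The share with the same sign over all genes tested was not computed, so this number has no background beside it. Pck1.L had 72.4 and 101 CPM at stage 32 and 20.3 and 13.4 CPM at stage 25 there (log2 fold change 2.37 ± 0.46, adjusted p 0.00916). Szl had 5.38 and 56.7 CPM at stage 32 and 294 and 496 CPM at stage 25 (-3.96 ± 0.80, adjusted p 0.00957). Lgmn.S had 86.7 and 62.5 CPM at stage 32 and 12.8 and 12.04 CPM at stage 25 (2.55 ± 0.45, adjusted p 0.00498). Each of the 3 moved the same way in the caps with foxa1MO as in uninjected caps, without overlap of the stages.

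Whether the change between stages differed by treatment was tested for each gene. With foxa1MO and with suh-dbm no gene of 31648 was called by edgeR (460 and 381 at an unadjusted p under 0.05, and 0 by DESeq2 in both), while with suh-dbm and dnmcidas 1 was (0.00316%; 56 by DESeq2), and with nicd 6 were (0.019%; 171 by DESeq2). The count with nicd was 1 without the stage 32 or stage 25 library of experiment 1 of either treatment or without the uninjected stage 25 library of experiment 2, and 85 without the nicd stage 25 library of experiment 2. These differences share the uninjected libraries. With nicd, pck1.L had 13.5 and 31.96 CPM at stage 32 and 62.8 and 31.5 CPM at stage 25, and its change of -1.05 ± 0.45 differed from that of uninjected caps by -5.66 ± 0.67 (adjusted p 0.000802). The S copy pck1.S rose with nicd (8.66 ± 1.34, adjusted p 0.000964), and its difference from uninjected caps was not called (-2.05 ± 2.90). With suh-dbm and dnmcidas pck1.L rose by 3.59 ± 0.49 (adjusted p 0.00125), and with suh-dbm by 3.89 ± 0.49 (adjusted p 0.000851). Of all genes, 6.98% were called between the stages with nicd, 1.46% with suh-dbm and dnmcidas and 1.94% with suh-dbm. The axoneme list had a median change of -0.81 with nicd, 0.55 with suh-dbm and dnmcidas, and -0.59 with suh-dbm. It was -0.33 with foxa1MO and -0.53 in uninjected caps. None of the list's genes was called for a difference. Its dnaaf1.S had 0.824 and 0.162 CPM at stage 32 and 0.648 and 0.751 CPM at stage 25 with nicd. Uninjected caps had 18.2 and 17.3 CPM, and 54.1 and 47.5 CPM. With suh-dbm and dnmcidas dnaaf1.S had 1.40 and 0.547 CPM, and 0.660 and 0.669 CPM. Dnaaf5.S was less scarce, with 6.31 and 3.89 CPM, and 12.6 and 6.18 CPM with nicd. The medians with nicd and with suh-dbm and dnmcidas thus rest partly on low counts, where a difference is hard to call.

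**Figure D5:**
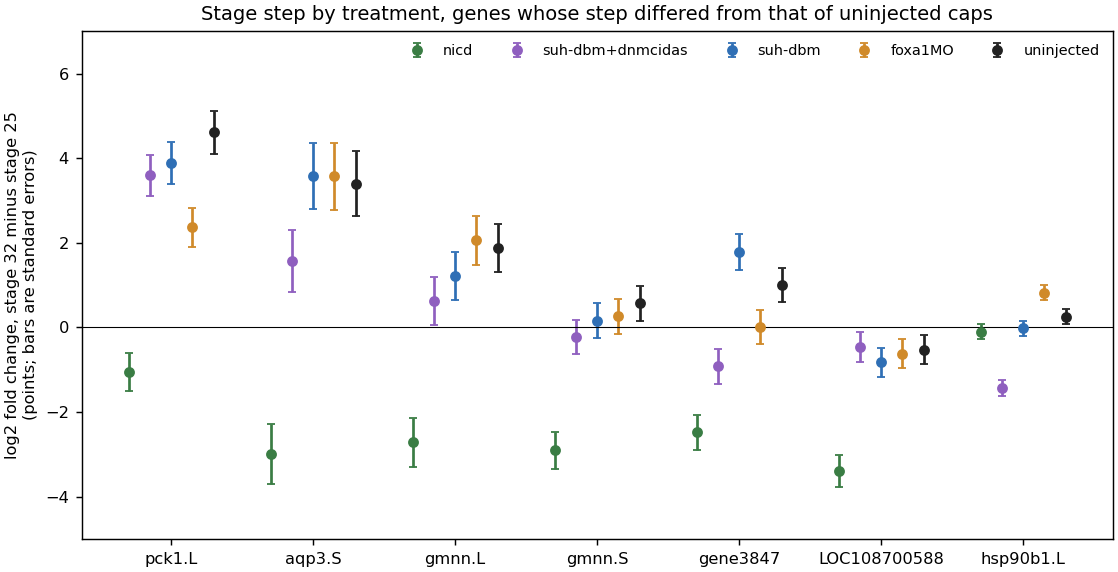
Log2 fold change of stage 32 over stage 25 (y axis; points, with standard errors as bars) in each injected treatment and in uninjected caps, for the 7 genes called for a difference in that change. The nicd points of pck1.L, aqp3.S, gmnn.L, gmnn.S, gene3847 and LOC108700588 lie below the uninjected points, and for hsp90b1.L the point of suh-dbm+dnmcidas does.

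Of the genes tested here, 3233 have an adjusted p under 0.05 in the authors' deposited table of this comparison. Of these, 1602 are higher and 1631 lower at stage 32. Of the 1063 genes called here, 944 are among them in the authors' deposited table with the same sign.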

How the data were processed

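The deposited files are raw counts per gene and library, made by the authors. Per the submitters' processing notes the tools were FastQC 0.11.5, STAR 2.6.0b-1, featureCounts 1.6.3 and DESeq2 1.22.1. The genome build is not given in the sources used here. Per the labels' protocols, poly-A libraries without strand information were sequenced in paired ends in 2 runs that each held all samples, so overlapping genes on opposite strands cannot be told apart. Log2 fold changes, p-values and a test score are in the authors' deposited comparison table, of which the first 2 were used, only where that table is named. A separate deposited table pairs 48349 of 51017 gene IDs with symbols.

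Counts were tested in R 4.3.3 with edgeR 4.0.16 (quasi-likelihood, TMM factors, filterByExpr at a count of 10 or more per library and 15 or more in total), over all 40 libraries in 20 groups with the experiment as a block, which leaves 19 residual degrees of freedom. The contrasts were stage 32 minus stage 25 in uninjected caps, the same with foxa1MO, and the difference of each injected step from the uninjected one. P-values were adjusted by Benjamini-Hochberg over 31648 genes. The block follows the design, in which each experiment is another female and fertilization. As a check, the difference between experiments at stage 32 correlated with that at stage 25 across genes (r = 0.31), and over the 190 pairs of groups r had a median of 0.18 and a minimum of 0.045. Log2 ratios within an experiment used TMM-scaled CPM with a prior count of 2. A floor of 3 counts was used for groups at 0, and intervals cover counting error only. Replicate libraries differed by more than sampling noise (chi-square per degree of freedom 62.5 at stage 32 and 48.5 at stage 25).

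The genes and lists were chosen with earlier results of these data known, and 10 lists were added after their values were seen, as said beside each. Counts in those 10 lists do not speak for the gene classes they are named after. Some genes are in more than 1 list, such as cep164.L in the centriole and basal body lists, so counts of different lists cannot be added. Genes were named by a rule: the 15 largest changes in each direction among called genes with a mean of at least 5 CPM and a proper symbol, up to 4 called copies per list and direction, markers of each cell type, and the 10 most abundant genes. In data simulated for the uninjected comparison (31164 genes), 22%, 66%, 90% and 94% of 50 genes each changed by 2, 4, 8 and 16 times were called, with 4 false calls. The changed genes were drawn from the better-counted ones. The 4 uninjected libraries were simulated without a difference between experiments and with the spread of the fit, so these rates may not hold for the data. Alternatives were DESeq2 1.42.0, RLE size factors, no filter, no block, fewer libraries, summed L and S copies, and leaving out each library.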

Additional observations from a re-analysis of the deposited data

Results flagged for a closer look

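The change between the stages differed from that of uninjected caps, by the edgeR quasi-likelihood test of the difference with the experiment as a block, for 6 genes with nicd and for 1 with suh-dbm and dnmcidas. The uninjected libraries are shared by these differences.

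Pck1.L rose in uninjected caps and not with nicd, where it had 13.5 and 31.96 CPM at stage 32 and 62.8 and 31.5 CPM at stage 25, a difference of -5.66 ± 0.67 (log2, adjusted p 0.000802). This holds for the L copy only. Pck1.S rose with nicd too, with 5.396 and 15.99 CPM at stage 32 and 0.0589 and 0 CPM at stage 25. Its log2 fold change there was 8.66 ± 1.34 (adjusted p 0.000964, edgeR), with few reads at stage 25. The difference of pck1.S from uninjected caps was not called (-2.05 ± 2.90). Aqp3.S, which encodes a water and glycerol channel, had 6.50 and 2.43 CPM at stage 32 and 46.8 and 18.9 CPM at stage 25 with nicd, a difference of -6.39 ± 1.05 (adjusted p 0.0324). Geminin, an inhibitor of DNA replication licensing, differed by -4.58 ± 0.81 for gmnn.L (adjusted p 0.0397) and by -3.48 ± 0.59 for gmnn.S (adjusted p 0.0324). With nicd gmnn.L had 34.1 and 14.6 CPM at stage 32 and 283 and 46.0 CPM at stage 25, and in uninjected caps it had 30.4 and 9.61 CPM at stage 32, against 6.39 and 3.54 CPM at stage 25. The unnamed genes gene3847 and LOC108700588 differed by -3.48 ± 0.59 (adjusted p 0.0324) and -2.87 ± 0.51 (adjusted p 0.0397). With nicd all 6 differences were below 0.

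With suh-dbm and dnmcidas, hsp90b1.L, a chaperone of the endoplasmic reticulum, had 239 and 301 CPM at stage 32 and 721 and 763 CPM at stage 25. In uninjected caps it had 515 and 493 CPM at stage 32, against 377 and 436 CPM at stage 25, and the difference was -1.68 ± 0.26 (adjusted p 0.0302).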

How the results depend on the processing

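Counts of calls moved with the fit, while 1 of the 160 named genes that were called, ptdss2.S with copies summed, changed sign under an alternative that gave it a value. For genes higher at stage 32 the count of 446 became 178 with no replicate block, 249 in the 8 uninjected libraries alone, 2364 in the 4 libraries alone (1 residual degree of freedom) and 1047 with DESeq2, and 11 to 369 when 1 library was left out. For genes lower at stage 32 the count of 617 became 277 with no replicate block, 406 in 8 libraries, 2541 in 4 libraries and 1324 with DESeq2, and 7 to 224 when 1 library was left out. RLE size factors, no filter on low counts and summed L and S copies kept both counts within 1.5 times. For the step with foxa1MO, 860 became 369 with no replicate block, 2286 with DESeq2 and 0 to 1183 when 1 library was left out. For the difference with nicd, 6 became 1 with no replicate block, 10 without the filter, 171 with DESeq2 and 1 to 85 when 1 library was left out. For the difference with suh-dbm and dnmcidas, 1 became 0 with no replicate block, 0 with RLE size factors, 0 without the filter, 56 with DESeq2 and 0 to 6 when 1 library was left out. The differences with suh-dbm and with foxa1MO stayed at 0 under all of these. The causes were not tested.

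Of 160 named genes that were called, 91 were called without the block, 156 with RLE size factors, 157 with DESeq2 and 136 with copies summed. Ptdss2.S turned to -0.51 with copies summed. Among genes not called, log2 fold changes of the other sign were 0.57 for sod3.L, -0.010 for mki67.S, 0.087 for foxa1.L and 0.36 for xk81a1.L with copies summed. Without the block they were 0.018 for myod1.L and 0.020 for foxa1.L. In 8 uninjected libraries they were 0.097 for myod1.L and 0.032 for foxa1.L, and in 4 libraries 0.11 for foxa1.L. With 1 library left out, log2 fold changes crossed 0, with ranges of -0.27 to 0.33 for krt5.7.L, -0.12 to 0.42 for krt5.7.S, -0.78 to 1.36 for myod1.L, -6.07 to 0.44 for myod1.S, -0.50 to 0.25 for mki67.L, -1.01 to 0.10 for otog.L, -0.86 to 0.0903 for LOC108696890, -0.17 to 0.46 for mki67.S, -0.58 to 0.85 for foxa1.L, -0.46 to 0.67 for foxa1.S, -0.40 to 0.095 for xk81a1.L, -0.31 to 0.19 for foxj1.L, -0.82 to 0.13 for foxj1.S and -0.34 to 0.091 for ccdc50.L.

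With 2 libraries a group, a gene changed by 2 times was called in 22% of simulated cases, so most changes of that size are not detectable here. A fit without a library takes the lone library of its group to vary like the others. Genes with 3 counts or fewer in a stage have fold changes that are bounds or wide intervals.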

Other observations

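Where at least 1 copy of a gene was called, its L and S copies mostly shared their direction. Signs were not compared in pairs without a called copy. Of 5144 pairs with both copies tested, 399 had at least 1 called copy. Both copies were called in the same direction in 57 pairs and in opposite directions in 1. In the other 341, the copy that was not called had the same sign in 281 and the opposite sign in 60. The pair called in opposite directions was ptdss2, which encodes phosphatidylserine synthase 2. Ptdss2.L had 3.80 and 8.80 CPM at stage 32, against 18.8 and 18.6 CPM at stage 25 (log2 fold change -1.69 ± 0.43, adjusted p 0.0298, edgeR). Ptdss2.S had 11.01 and 9.07 CPM at stage 32, against 3.69 and 4.08 CPM at stage 25 (log2 fold change 1.30 ± 0.27, adjusted p 0.00930, edgeR). The stages did not overlap for either copy. Sod3, an extracellular superoxide dismutase, differed in call. Sod3.S had 128 and 115 CPM at stage 32, against 50.7 and 52.3 CPM at stage 25 (log2 fold change 1.19 ± 0.33, adjusted p 0.0418, edgeR), while sod3.L had 17.4 and 31.4 CPM at stage 32, against 45.5 and 42.1 CPM at stage 25 and was not called (adjusted p 0.311, edgeR). How reads that match both copies were counted is not given in the sources used here.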
